A study of Rattus norvegicus with 16 samples.

Results

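Glomeruli of nephrotic rats given methylprednisolone were compared with glomeruli of nephrotic rats given no drug. The comparison used 8 of the 16 RNA libraries of the series, chosen by their labels alone, 4 in each group, and bears on the study's stated question of which disease changes the drug lessens. PAN+MP rats received puromycin aminonucleoside (PAN), a podocyte toxin that causes nephrotic syndrome, by tail vein at 50 mg/kg, and then methylprednisolone by intraperitoneal injection at 15 mg/kg daily. PAN rats received the same dose of PAN and then vehicle by mouth daily. The route of dosing therefore differed along with the drug, and the share of each in a difference cannot be told apart. PAN+Pio rats, which received PAN and then pioglitazone at 10 mg/kg by mouth daily, and Sham rats, healthy controls on oral vehicle, serve below to place the main comparison. Glomeruli were isolated on day 11 from 4 rats a group, and the strain, sex and age of the rats and the hour of collection are not given in the sources used here. Of the 36351 genes in the deposited count table, 17061 had enough reads to be tested, and a gene is called changed at an adjusted p under 0.05.

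Methylprednisolone is a synthetic glucocorticoid. It binds the glucocorticoid receptor, encoded by Nr3c1, which then moves to the nucleus and raises or lowers the transcription of many genes, often through the sequence called the glucocorticoid response element. Glucocorticoids are the standard first treatment of nephrotic syndrome, in which the podocyte, the epithelial cell that covers the glomerular capillary, loses its foot processes and the filter leaks protein. In whole glomeruli, fewer cells of a type and less RNA per cell cannot be told apart.

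The 4 PAN+MP libraries held 27144706 to 32571877 counted reads and the 4 PAN libraries 25598960 to 29116478. Levels are given as CPM, read counts scaled to the size of the library, and libraries are numbered by their order in the table, which is a name only. Nphs1, which encodes the podocyte slit diaphragm protein nephrin, was high in all 8 libraries, at 2734 to 3181 CPM in PAN+MP and 1526 to 2506 CPM in PAN. Tubule carry-over was present as well. Lrp2, the endocytic receptor of the proximal tubule, had 2779, 2807, 2823 and 3143 CPM in the PAN+MP libraries, against 2562, 1067, 2884 and 2406 CPM in the PAN libraries. Over 26 proximal tubule markers, the summed level was 7260 to 11990 CPM in PAN+MP and 3019 to 14450 CPM in PAN, with PAN library 2 the lowest. That library had 525 genes at least 2-fold below all of the other 3 PAN libraries, where the other 3 had 14 to 22 such genes. Within PAN+MP, library 4 had 70 genes at least 2-fold above the other 3, library 1 had 53, and libraries 2 and 3 had 5 each. Many of the results that rest on these libraries are given with and without them, or with their range over the alternative fits.

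Methylprednisolone-treated glomeruli differed from untreated ones in 1470 genes, which is 8.62% of those tested. Of these, 564 (3.31%) were higher in PAN+MP and 906 (5.31%) lower. Changes of at least 2-fold were found in 606 genes (3.55%), with 156 genes higher (0.914% of those tested) and 450 lower (2.64%). All 4 PAN+MP libraries lay above all 4 PAN libraries in 1220 genes (7.15%) and below them in 1470 (8.62%), and the median log2 fold change of all genes was -0.001. Leaving out 1 library at a time gave between 946 and 1387 called genes. The count was 963 without PAN library 2, 978 without PAN+MP library 2 and 946 without PAN+MP library 3, and none of the 1470 genes changed sign under any of the 17 alternatives in which it was tested. In the authors' deposited table, 1774 genes passed the same threshold between these groups, and 1370 of the 1470 called here were among them with the same direction.

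The standard readouts of glucocorticoid action overlapped between the 2 groups. Fkbp5, which encodes a chaperone partner of the receptor and is a standard readout of its activity, had 22.4, 29.3, 31.1 and 210.5 CPM in the PAN+MP libraries, against 50.1, 27.8, 42.6 and 30.4 CPM in the PAN libraries. Only PAN+MP library 4 stood out, and the other 3 lay within or below the range of PAN. The gene was not called (log2 fold change 0.96 ± 0.59, adjusted p = 0.40), and its log2 fold change was -0.44 without that library. Zbtb16, a zinc finger transcription factor that glucocorticoids induce strongly in many tissues, had 1.96, 3.02, 9.83 and 24.5 CPM with methylprednisolone, against 11.6, 2.97, 5.76 and 3.12 CPM without it. Its levels overlapped, with library 4 again the highest (log2 fold change 0.75 ± 0.80, adjusted p = 0.67, and -0.24 without library 4). Mt2A, a metallothionein that binds zinc, had 30.8, 43.9, 35.3 and 166 CPM in the PAN+MP libraries, against 37.5, 16.3, 59.6 and 41.5 CPM in the PAN libraries. It too was high in library 4 alone (log2 fold change 0.83 ± 0.51, adjusted p = 0.40, and -0.08 without that library). Mt1a, another metallothionein, had 17.4, 30.1, 16.1 and 78.5 CPM with methylprednisolone, against 12.1, 4.71, 20.1 and 13.3 CPM without it. Library 4 was again the highest, the groups overlapped and the gene was not called (log2 fold change 1.501 ± 0.51, adjusted p = 0.088). That log2 fold change was the largest among the 37 tested glucocorticoid-induced genes described next. Tsc22d3, which encodes the anti-inflammatory protein GILZ, had 155, 164, 227 and 342 CPM with methylprednisolone, against 167, 109, 201 and 115 CPM without it, and the groups overlapped (log2 fold change 0.58 ± 0.30, adjusted p = 0.29). Per1, a clock gene with a receptor-driven promoter, also overlapped, at 56.1 to 165 CPM in PAN+MP against 51.5 to 75.999 CPM in PAN (log2 fold change 0.63 ± 0.46, adjusted p = 0.50).

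Across 37 tested glucocorticoid-induced genes, library 4 was the highest PAN+MP library for 27 genes (73.0%), against 5329 (31.2%) of all 17061 genes. Library 1 was the highest for 1 gene of the list. The list's median log2 fold change was 0.20, beside -0.001 for all genes, and was -0.01 without PAN+MP library 4. Of its genes 2 rose (5.41%) and 2 fell (5.41%), beside 3.31% of all genes called higher and 5.31% called lower. The higher count was 1 without PAN+MP library 2, 3 or 4 or PAN library 2, 3 or 4, with upper quartile factors and with no filter on low counts and 4 with a proximal tubule covariate, and the lower count 0 without PAN+MP library 1, 2 or 3 or PAN library 1 or 2 and 1 without PAN library 3, without the 2 tagged Sham and PAN+Pio libraries and in a fit of the 2 groups alone. Cdkn1c, which encodes the cyclin-dependent kinase inhibitor p57 and is itself a podocyte gene, had 346, 427, 343 and 373 CPM in the PAN+MP libraries, against 163, 127, 161 and 286 CPM in the PAN libraries. Every PAN+MP library lay above every PAN library (log2 fold change 1.02 ± 0.24, adjusted p = 0.014), a call that held under every alternative. Arrdc2, an arrestin domain protein, was slightly higher at 8.27 to 12.03 CPM in PAN+MP against 4.59 to 7.08 CPM in PAN (log2 fold change 0.72 ± 0.21, adjusted p = 0.046). That call was lost without PAN+MP library 1, 2, 3 or 4 or PAN library 2, 3 or 4, with upper quartile factors and with no filter on low counts (adjusted p of 0.013 to 0.13 over the 17 alternatives). Pdk4, a kinase that restrains pyruvate use and is normally raised by glucocorticoids, fell, with 12.3, 28.7, 13.4 and 32.01 CPM in the PAN+MP libraries, against 119, 69.7, 58.9 and 33.8 CPM in the PAN libraries (log2 fold change -1.70 ± 0.48, adjusted p = 0.036). Dusp1, a phosphatase that quiets MAP kinases, fell with overlapping groups, at 60.3 to 107 CPM in PAN+MP against 100.2 to 131 CPM in PAN (log2 fold change -0.496 ± 0.15, adjusted p = 0.048). The Pdk4 call was lost without PAN+MP library 1, 2 or 3 or PAN library 1 or 2 (adjusted p of 0.015 to 0.13 over the 17 alternatives). The Dusp1 call was lost without PAN+MP library 1, 2 or 3 or PAN library 1, 2 or 3, without the 2 tagged Sham and PAN+Pio libraries and in a fit of the 2 groups alone (adjusted p of 0.012 to 0.15 over the 17 alternatives). Sgk1, a kinase induced by both steroid receptors of the kidney, was not called at 347 to 640.2 CPM in PAN+MP against 621 to 932 CPM in PAN (log2 fold change -0.51 ± 0.18, adjusted p = 0.097).

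Levels of the receptor itself overlapped. Nr3c1 had 379, 386, 359 and 357 CPM in the PAN+MP libraries, against 371, 398, 349 and 336 CPM in the PAN libraries (log2 fold change 0.03 ± 0.07, adjusted p = 0.89, and -0.002 without PAN library 4). Nr3c2, the mineralocorticoid receptor, which also binds glucocorticoids, had 43.6, 45.5, 46.5 and 38.7 CPM with methylprednisolone, against 28.3, 32.6, 27.6 and 34.6 CPM without it. It was higher in every treated library (log2 fold change 0.501 ± 0.09, adjusted p = 0.0015) and was the 1 called gene among 15 tested genes of receptor signalling. Hsd11b1, the enzyme that regenerates active glucocorticoid, had 39.7 to 91.8 CPM in PAN+MP against 20.2 to 123 CPM in PAN and was not called (log2 fold change -0.09 ± 0.41, adjusted p = 0.94).

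**Figure D1:**
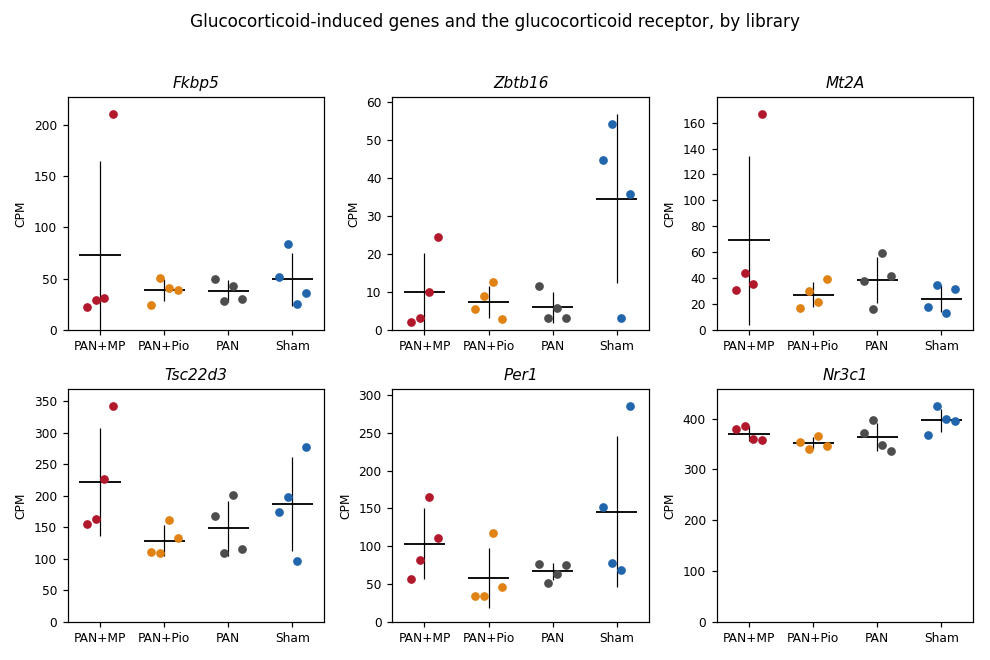
Levels in CPM of 5 glucocorticoid-induced genes and the glucocorticoid receptor Nr3c1 in each library of the 4 groups, with the mean (horizontal line) and SD (vertical line, n = 4). Fkbp5, Zbtb16 and Mt2A were high in 1 PAN+MP library, at 210.5, 24.5 and 166 CPM, and Nr3c1 overlapped between PAN+MP and PAN.

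Among called genes that did not overlap between the groups and reached a mean of 5 CPM in the higher one, the 12 with the largest increase were Nmbr, Dbp, Lpar1, Adrb1, Col8a2, Ptger1, Igsf10, Myh15, Rhbdl3, C1qtnf7, Tef and Per3. Of these, 4 encode cell surface receptors and 3 belong to the clock. Nmbr, the receptor of neuromedin B, had 5.07, 9.11, 8.34 and 10.3 CPM in the PAN+MP libraries, against 0.241, 0.0742, 0.483 and 0.343 CPM in the PAN libraries. The gene was nearly silent in PAN and rose in every treated library (log2 fold change 4.81 ± 0.49, adjusted p = 1.3e-05), with 8.12 to 29.2 CPM in Sham. Adrb1, the beta-1 adrenergic receptor, had 8.01, 7.93, 11.3 and 18.1 CPM with methylprednisolone, against 1.17, 0.667, 2.38 and 2.55 CPM without it. It rose likewise (log2 fold change 2.74 ± 0.40, adjusted p = 0.00032), with 8.91 to 18.6 CPM in Sham. Ptger1, a receptor of prostaglandin E2, had 64.9, 80.7, 66.2 and 71.2 CPM in the PAN+MP libraries, against 16.1, 7.16, 7.28 and 17.5 CPM in the PAN libraries. Here the treated libraries also exceeded Sham, at 24.1 to 49.7 CPM (log2 fold change PAN+MP over PAN 2.56 ± 0.28, adjusted p = 1.9e-05, and over Sham 1.01 ± 0.26, adjusted p = 0.024). The call against Sham was lost without PAN+MP library 2 or 4 or Sham library 1, 2 or 3, with a proximal tubule covariate and without the 2 tagged Sham and PAN+Pio libraries (adjusted p of 0.0039 to 0.08 over the 17 alternatives).

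Lpar1, a receptor of lysophosphatidic acid, had 5.83, 8.02, 11.1 and 49.7 CPM in the PAN+MP libraries, against 4.42, 1.298, 2.52 and 2.67 CPM in the PAN libraries (log2 fold change 2.78 ± 0.60, adjusted p = 0.0078). Its size rested on library 4, and the log2 fold change was 1.61 at the lowest of the alternatives. Col8a2, a short-chain collagen, behaved in the same way, with 4.13, 3.58, 9.16 and 26.1 CPM with methylprednisolone, against 2.57, 0.816, 1.83 and 2.06 CPM without it (log2 fold change 2.56 ± 0.66, adjusted p = 0.022), and its call was lost without PAN+MP library 4 or PAN library 2 or 3 and by limma voom (adjusted p of 0.0026 to 0.095 over the 17 alternatives). Myh15, a myosin heavy chain, had 83.1, 81.3, 85.1 and 47.6 CPM in the PAN+MP libraries, against 14.2, 9.53, 13.8 and 18.9 CPM in the PAN libraries, all above PAN and above Sham at 15.2 to 46.1 CPM (log2 fold change 2.398 ± 0.29, adjusted p = 5.3e-05). Rhbdl3, of the rhomboid protease family, C1qtnf7, a secreted C1q and TNF related protein, and Igsf10 had log2 fold changes of 2.15 ± 0.23 (adjusted p = 1.6e-05), 2.099 ± 0.36 (adjusted p = 0.0012) and 2.404 ± 0.39 (adjusted p = 0.00077).

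By the same rule, the 12 genes with the largest decrease were Acta1, Iqsec3, Fam64a, Wfdc1, Ttk, Cenpt, Pbk, Flnc, Hist1h2bl, Mxd3, Hist1h2ak and Prc1. A muscle actin came first, and cell division genes were many among them. Acta1, the actin of skeletal muscle, had 0.0725, 0.0622, 0.0317 and 0.124 CPM in the PAN+MP libraries, against 9.73, 24.3, 5.35 and 4.57 CPM in the PAN libraries. It was close to nothing in the treated libraries, as in Sham at 0 to 0.04403 CPM (log2 fold change -7.15 ± 0.73, adjusted p = 1.3e-05). Iqsec3, an exchange factor for Arf GTPases, had 0.326, 0.218, 0 and 0 CPM with methylprednisolone, against 7.198, 9.94, 2.04 and 1.37 CPM without it (log2 fold change -5.24 ± 0.82, adjusted p = 0.00057). Reads of both genes were few in PAN+MP, so these fold changes depend on the prior count of the fit. Wfdc1, a secreted protein with a whey acidic protein domain, had 2.36, 1.31, 0.983 and 1.58 CPM in the PAN+MP libraries, against 32.97, 29.3, 10.8 and 10.8 CPM in the PAN libraries, with no overlap (log2 fold change -3.75 ± 0.40, adjusted p = 1.8e-05). PAN libraries 1 and 2 were above PAN libraries 3 and 4 in all 3 genes.

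**Figure D2:**
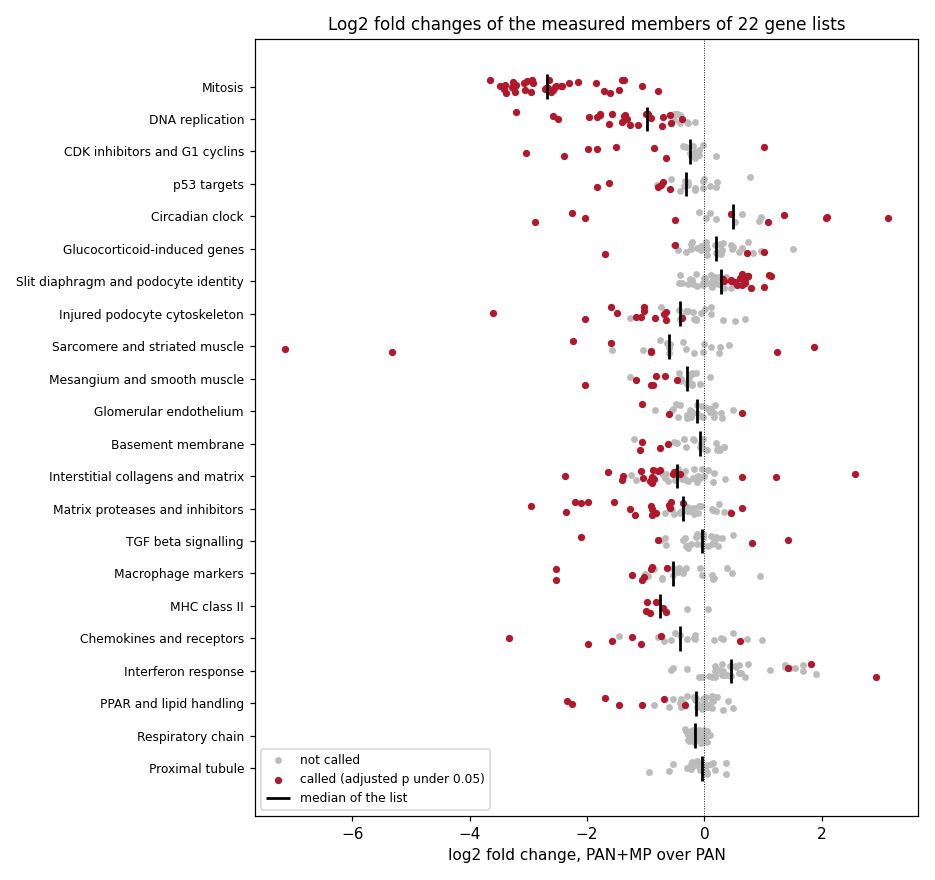
Log2 fold change of PAN+MP over PAN for each tested member of 22 gene lists. Each point is 1 gene, called genes are red, and the black bar is the median of the list; the mitosis list lies wholly below 0, at a median of -2.69, and the proximal tubule list is centred at -0.04 and between -0.33 and 0.304 when 1 library is left out.

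Genes of mitosis and DNA replication mostly fell. All 38 tested genes of the mitotic spindle, kinetochore and cytokinesis fell, and their median was -2.69 on the log2 scale, beside 5.31% of all genes called lower. All tested members were also called under each of the 17 alternatives, 37 of them with a minimum count of 50. Of 32 genes of DNA replication, 23 fell (71.9%), with a median of -0.98. The replication count was 14 without PAN library 2. Many such genes are driven by promoters with short shared sequences: the cell cycle homology region (TTTGAA), bound by the complex that times mitotic genes, the CCAAT box (CCAAT), bound by NF-Y, and the E2F site (searched as TTTCCCGC and TTTGGCGC), which times genes of the S phase. The 3 promoters below are those of genes described next, from RefSeq on the build GRCr8, each 300 bases from 250 before to 50 after the start, with chosen matches on either strand in capitals. In Prc1 and Top2a the capitals mark the cell cycle homology region and CCAAT boxes, and in Mcm5 the E2F sites, while its 3 CCAAT boxes stay in lower case.
Prc1 (chr1:143659231-143659530, plus strand): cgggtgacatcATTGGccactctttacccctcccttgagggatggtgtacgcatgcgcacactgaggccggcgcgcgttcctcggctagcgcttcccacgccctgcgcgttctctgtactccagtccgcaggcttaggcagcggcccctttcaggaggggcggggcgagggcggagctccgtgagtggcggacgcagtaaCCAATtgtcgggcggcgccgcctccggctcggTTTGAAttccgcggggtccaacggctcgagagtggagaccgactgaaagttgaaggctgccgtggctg
Top2a (chr10:84473044-84473343, minus strand): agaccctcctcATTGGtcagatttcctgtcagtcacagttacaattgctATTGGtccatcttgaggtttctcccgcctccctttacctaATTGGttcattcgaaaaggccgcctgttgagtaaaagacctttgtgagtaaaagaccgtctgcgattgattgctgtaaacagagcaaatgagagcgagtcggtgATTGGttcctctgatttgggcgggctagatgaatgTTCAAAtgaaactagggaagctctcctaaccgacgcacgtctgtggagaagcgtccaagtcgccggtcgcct
Mcm5 (chr19:13488563-13488862, plus strand): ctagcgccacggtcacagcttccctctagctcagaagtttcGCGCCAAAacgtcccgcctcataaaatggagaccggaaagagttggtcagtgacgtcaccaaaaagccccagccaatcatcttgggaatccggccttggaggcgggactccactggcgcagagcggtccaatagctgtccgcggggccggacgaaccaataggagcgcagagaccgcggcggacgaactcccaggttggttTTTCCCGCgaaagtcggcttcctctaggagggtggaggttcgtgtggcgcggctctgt

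The cell cycle homology region stood at -18 in Prc1 and at -22 in Top2a, counted from the start of transcription. Promoters were found for 32 of the 38 mitosis genes, and 22 of them (68.8%) held TTTGAA on either strand, against 18.1% of the 27457 rat promoters of the same length. The CCAAT box was in 23 of the 32 (71.9%), against 37.7% of all promoters. Of 26 replication promoters, 10 (38.5%) held an E2F site and 1 held TTTGAA, where 1.53% of all promoters held an E2F site. These letters are a description of the promoters and not a measure of binding, and no motif contains another.

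Mki67, which encodes the proliferation antigen Ki-67, had 18.8, 11.2, 10.8 and 8.89 CPM in the PAN+MP libraries, against 118, 135, 82.7 and 80.96 CPM in the PAN libraries. Each treated library was far below each untreated one, and also below Sham at 19.1 to 38.4 CPM (log2 fold change PAN+MP over PAN -3.07 ± 0.29, adjusted p = 9.1e-06, and over Sham an adjusted p of 0.029). The call against Sham was lost without PAN+MP library 2, 3 or 4 or Sham library 3, with a proximal tubule covariate and in a fit of the 2 groups alone (adjusted p of 0.0043 to 0.11 over the 17 alternatives). Prc1, which bundles the microtubules of the central spindle, had 11.3, 5.19, 5.33 and 5.16 CPM with methylprednisolone, against 66.3, 103, 69.1 and 62.02 CPM without it (log2 fold change -3.48 ± 0.34, adjusted p = 1e-05). Library 1 was the highest PAN+MP library, and Sham had 9.598 to 19.7 CPM. Top2a, the topoisomerase that untangles DNA before division, had 12.6, 7.25, 6.498 and 7.46 CPM in the PAN+MP libraries, against 86.3, 121, 77.8 and 66.9 CPM in the PAN libraries (log2 fold change -3.38 ± 0.32, adjusted p = 9.4e-06). Bub1b, a checkpoint kinase of the kinetochore, had 2.36, 1.55, 1.58 and 1.68 CPM with methylprednisolone, against 15.7, 22.7, 15.9 and 14.5 CPM without it, again without overlap (log2 fold change -3.26 ± 0.26, adjusted p = 5.1e-06). Tpx2, a spindle assembly factor, Kif23, a motor of cytokinesis, and Mybl2, a transcription factor of mitotic genes, had log2 fold changes of -2.42, -2.68 and -2.44. Ttk, another checkpoint kinase, had -3.65. Outside the list, the mitotic regulator Fam64a, the mitotic kinase Pbk and the centromere protein Cenpt had -3.903, -3.61 and -3.62.

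Replication genes fell by less at the median of the list. Ccna2, cyclin A2, had 3.99, 2.27, 2.28 and 1.93 CPM in the PAN+MP libraries, against 22.6, 33.1, 24.3 and 17.1 CPM in the PAN libraries (log2 fold change -3.22 ± 0.30, adjusted p = 8.9e-06). Tk1, the thymidine kinase that supplies DNA precursors, had 6.52, 3.82, 4.75 and 5.56 CPM with methylprednisolone, against 18.98, 24.6, 21.3 and 16.001 CPM without it (log2 fold change -1.97 ± 0.22, adjusted p = 2.4e-05). Uhrf1, which carries DNA methylation through replication, had 2.703 to 5.76 CPM in PAN+MP against 17.7 to 30.9 CPM in PAN (log2 fold change -2.58 ± 0.31, adjusted p = 4.9e-05). Cdc6, a loader of the replicative helicase, had 1.15 to 2.07 CPM in PAN+MP against 8.16 to 11.7 CPM in PAN (log2 fold change -2.497 ± 0.32, adjusted p = 8.9e-05). Mcm5, a subunit of that helicase, had 5.997 to 8.56 CPM in PAN+MP against 17.3 to 27.2 CPM in PAN (log2 fold change -1.57 ± 0.28, adjusted p = 0.0018). None of these 5 overlapped between the groups, and no treated level was above the Sham range. Histone genes of the replication clusters moved with them, as 27 of 32 tested genes with symbols starting with Hist were called, all lower, at a median of -2.36. Hist1h2bl and Hist1h2ak had log2 fold changes of -3.61 ± 0.29 (adjusted p = 5.1e-06) and -3.495 ± 0.31 (adjusted p = 6.7e-06). These genes have near-identical copies, so the split of reads between copies is uncertain. Mxd3, a partner of Max that replaces Myc in S phase, had a log2 fold change of -3.53 ± 0.37 (adjusted p = 1.5e-05).

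Of 19 tested cyclin-dependent kinase inhibitors, G1 cyclins and E2F factors, 7 fell (36.8%) and 1 rose (5.26%), Cdkn1c. Over all genes, 5.31% were called lower and 3.31% higher. Cdkn1a, the inhibitor p21 and a target of p53, had 11.3, 9.58, 12.9 and 13.02 CPM in the PAN+MP libraries, against 38.6, 51.1, 43.3 and 33.2 CPM in the PAN libraries, and the groups did not overlap (log2 fold change -1.83 ± 0.23, adjusted p = 6.2e-05). Cdkn2c, the inhibitor p18, had 2.05 to 3.48 CPM in PAN+MP against 9.37 to 14.6 CPM in PAN (log2 fold change -1.98 ± 0.25, adjusted p = 6e-05). E2f8, a late repressor of the family, had 0.317 to 0.8696 CPM in PAN+MP against 3.62 to 5.34 CPM in PAN (log2 fold change -3.04 ± 0.37, adjusted p = 4.7e-05). Both of these inhibitors of the cell cycle fell beside the cycle genes while Cdkn1c rose. Of 22 p53 targets, 6 fell (27.3%), with a median of -0.31. Phlda3, an inhibitor of Akt, had 9.06, 8.68, 9.48 and 9.04 CPM with methylprednisolone, against 14.9, 16.5, 15.4 and 14.1 CPM without it (log2 fold change -0.75 ± 0.12, adjusted p = 0.00062). Eda2r, a death receptor, had 1.21 to 1.74 CPM in PAN+MP against 3.2002 to 5.91 CPM in PAN (log2 fold change -1.62 ± 0.29, adjusted p = 0.0018). Ccng1, cyclin G1, had 164 to 184 CPM in PAN+MP against 226 to 301 CPM in PAN (log2 fold change -0.58 ± 0.16, adjusted p = 0.028). Ccng1 was also above Sham, which had 66.5 to 97.7 CPM (PAN+MP over Sham 1.06 ± 0.16, adjusted p = 0.0015). The p53 count was 3 without PAN+MP library 1, 2 or 3. The Ccng1 call was lost without PAN+MP library 1, 2, 3 or 4 or PAN library 2 or 3 (adjusted p of 0.0065 to 0.08 over the 17 alternatives).

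**Figure D3:**
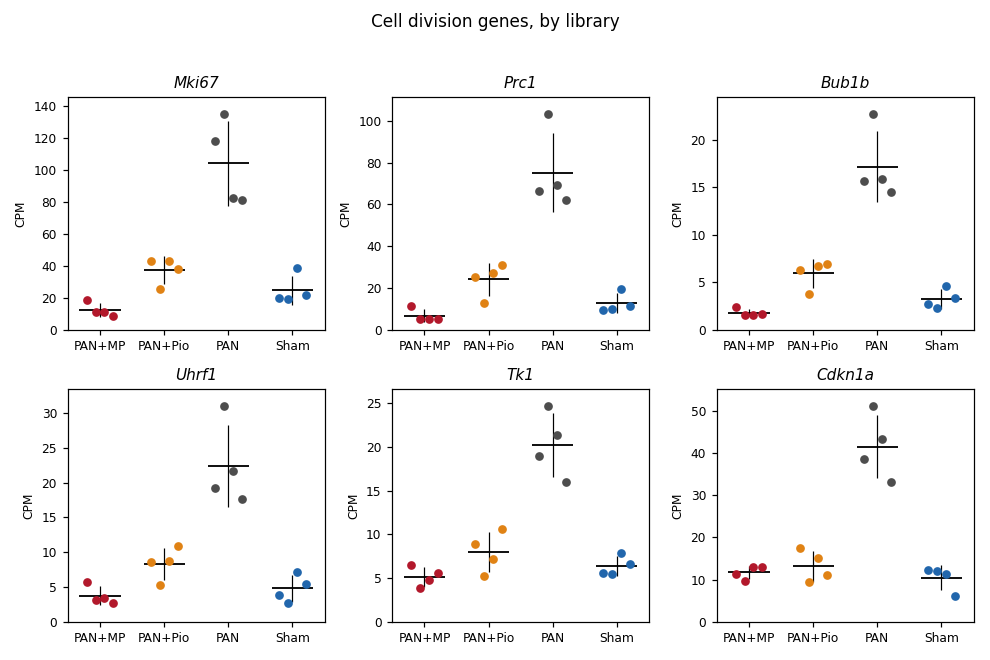
Levels in CPM of 6 cell division genes in each library of the 4 groups, with the mean (horizontal line) and SD (vertical line, n = 4). All 4 PAN+MP libraries lay below all 4 PAN libraries for each gene; Mki67 had 8.89 to 18.8 CPM in PAN+MP and 80.96 to 135 CPM in PAN.

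The circadian clock differed in both of its arms. The clock runs as a loop in which Clock or Npas2, paired with Arntl, drives the Per and Cry genes, whose products then repress that drive, and in which Dbp and Tef, activators at the D-box, act against the repressor Nfil3. Of 18 tested clock genes, 6 rose (33.3%) and 4 fell (22.2%), beside 3.31% and 5.31% of all genes. Promoters of a riser of each kind are shown from RefSeq on GRCr8, with the E-box of Tef (CACGTG, the site of Clock and Arntl) and the D-box of Per2 (TTATGTAA) in capitals.
Tef (chr7:115206577-115206876, plus strand): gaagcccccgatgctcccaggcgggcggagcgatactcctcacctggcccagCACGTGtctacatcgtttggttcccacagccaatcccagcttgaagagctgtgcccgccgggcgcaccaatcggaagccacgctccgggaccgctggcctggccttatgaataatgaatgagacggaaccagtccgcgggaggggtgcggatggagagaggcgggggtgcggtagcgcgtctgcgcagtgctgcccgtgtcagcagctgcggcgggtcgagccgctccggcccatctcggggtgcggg
Per2 (chr9:99496944-99497243, minus strand): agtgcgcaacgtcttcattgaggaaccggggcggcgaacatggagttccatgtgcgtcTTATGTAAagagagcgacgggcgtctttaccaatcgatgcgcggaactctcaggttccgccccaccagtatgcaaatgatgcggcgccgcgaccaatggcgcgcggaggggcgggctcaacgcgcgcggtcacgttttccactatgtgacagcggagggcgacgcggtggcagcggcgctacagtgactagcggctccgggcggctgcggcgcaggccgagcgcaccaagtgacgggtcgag

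The E-box began at -198 in Tef and the D-box at -192 in Per2. An E-box was in 4 of 16 clock promoters (25.0%), against 6.65% of all promoters, and the D-box in 1 of 16 (6.25%), against 0.881%. Among the called clock genes, Tef was the 1 riser of 6 with an E-box (16.7%), Per2 the 1 of 6 with a D-box, and 0 of 4 fallers held either. The core letters of the glucocorticoid response element, TGTTCT, were in 3 of 32 promoters of glucocorticoid-induced genes (9.38%), against 20.1% of all promoters. The full element, 2 such cores facing each other 3 bases apart, was in 0 of 32 promoters of glucocorticoid-induced genes and in 2 of the 27457.

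Dbp had 165, 229, 133 and 108 CPM in the PAN+MP libraries, against 11.3, 16.4, 16.6 and 27.9 CPM in the PAN libraries (log2 fold change 3.13 ± 0.47, adjusted p = 0.00042). Tef had 209.6, 252, 236 and 231 CPM with methylprednisolone, against 43.8, 45.7, 67.2 and 62.5 CPM without it (log2 fold change 2.08 ± 0.34, adjusted p = 0.00083). Per3, a period gene, had 119.8, 167, 142 and 111 CPM in the PAN+MP libraries, against 21.6, 34.6, 26.8 and 45.03 CPM in the PAN libraries (log2 fold change 2.08 ± 0.32, adjusted p = 0.00048). For each of these genes every treated library was well above the highest untreated one. Nr1d2, the repressor Rev-erb beta, had 162 to 196 CPM in PAN+MP against 39.2 to 95.97 CPM in PAN (log2 fold change 1.36 ± 0.26, adjusted p = 0.0028). Per2 had 112 to 149 CPM in PAN+MP against 38.2 to 77.9 CPM in PAN (log2 fold change 1.07 ± 0.30, adjusted p = 0.036). Cry2, a repressor of Clock, was slightly higher at 60.4 to 73.5 CPM in PAN+MP against 44.3 to 55.5 CPM in PAN (log2 fold change 0.46 ± 0.14, adjusted p = 0.049). The Per2 call was lost without PAN+MP library 2, 3 or 4 or PAN library 2 or 4 and without the 2 tagged Sham and PAN+Pio libraries (adjusted p of 0.0059 to 0.10 over the 17 alternatives). The Cry2 call was lost without PAN+MP library 2, 3 or 4 or PAN library 1, 2 or 4 and with no filter on low counts (adjusted p of 0.021 to 0.12 over the 17 alternatives).

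The opposite arm fell. Arntl, which encodes BMAL1, had 17.9, 8.303, 11.6 and 11.9 CPM in the PAN+MP libraries, against 115, 83.9, 96.4 and 70.5 CPM in the PAN libraries, with no overlap (log2 fold change -2.88 ± 0.47, adjusted p = 0.00084). Nfil3 had 4.02, 2.43, 5.74 and 4.26 CPM with methylprednisolone, against 24.5, 14.3, 18.2 and 10.1 CPM without it (log2 fold change -2.03 ± 0.36, adjusted p = 0.0017). Clock had 156 to 179 CPM in PAN+MP against 224 to 260.2 CPM in PAN (log2 fold change -0.49 ± 0.09, adjusted p = 0.0018). Npas2 had 0.746 to 3.99 CPM in PAN+MP against 6.38 to 11.9 CPM in PAN (log2 fold change -2.26 ± 0.61, adjusted p = 0.03), a call lost without PAN+MP library 2, 3 or 4 or PAN library 1 or 2 (adjusted p of 0.008 to 0.10 over the 17 alternatives). Summed over the list, the level was 1433 to 1677 CPM in PAN+MP and 966 to 1068 CPM in PAN, and 1328 to 2065 CPM in Sham. The median log2 fold change of the list was 0.04 for PAN+MP over Sham and -0.42 for PAN over Sham. A median over arms that move in opposite directions does not place each gene at the Sham level. Over Sham, 1 clock gene was called higher in PAN+MP (5.56%) and 2 lower (11.1%), beside 5.98% and 6.72% of all genes. Arntl was lower than in Sham (log2 fold change -2.03, adjusted p = 0.013), a call lost without Sham library 1 and by limma voom. Sham library 4 stood apart from the other Sham libraries, with Arntl at 10.2 and Dbp at 243 CPM, where the other 3 Sham libraries had Arntl at 45.1 to 98.5 and Dbp at 73.3 to 156 CPM. The part of the hour of collection in these differences was not tested, since the hour is not given.

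**Figure D4:**
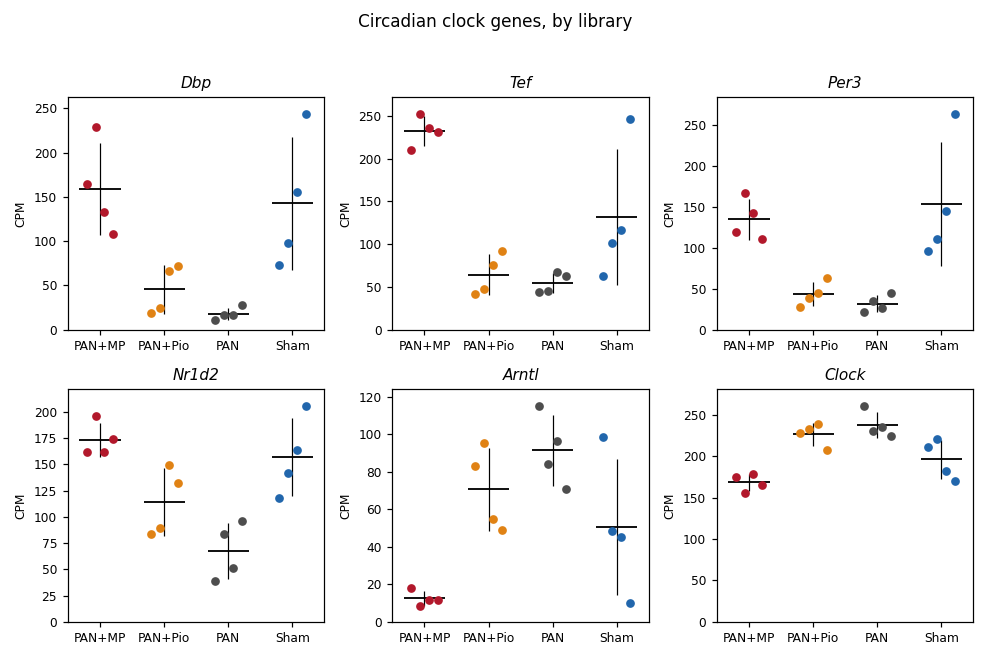
Levels in CPM of 6 circadian clock genes in each library of the 4 groups, with the mean (horizontal line) and SD (vertical line, n = 4). Dbp, Tef, Per3 and Nr1d2 were higher and Arntl and Clock lower in all 4 PAN+MP libraries than in all 4 PAN libraries, and Sham spread over much of the range.

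Podocyte genes were higher in part. Of 48 tested genes of the slit diaphragm and podocyte identity, 17 rose, with a median log2 fold change of 0.28, beside 3.31% of all genes called higher. Transcription factors were among the risers. Foxd1 had 112, 126, 147 and 133 CPM in the PAN+MP libraries, against 49.8, 48.5, 65.3 and 73.1 CPM in the PAN libraries (log2 fold change 1.13 ± 0.17, adjusted p = 0.00041). Foxc1 had 145, 159, 163 and 175 CPM with methylprednisolone, against 92.2, 98.2, 112 and 109 CPM without it (log2 fold change 0.64 ± 0.11, adjusted p = 0.001). Both were higher in all 4 treated libraries. Arhgap24, a GTPase-activating protein that restrains Rac1, had 1714, 1959.7, 1928 and 1828 CPM in the PAN+MP libraries, against 872, 621, 998 and 989 CPM in the PAN libraries, also above Sham at 766 to 1413 CPM (log2 fold change PAN+MP over PAN 1.09 ± 0.17, adjusted p = 0.00055, and over Sham 0.78 ± 0.17, adjusted p = 0.011). Vegfa, the growth factor that podocytes supply to the capillary, had 2419, 2847, 2802 and 2320.4 CPM with methylprednisolone, against 1655, 1309, 1229 and 2038 CPM without it (log2 fold change 0.74 ± 0.14, adjusted p = 0.0029). Npr3, a clearance receptor of natriuretic peptides, and Sema3g, a secreted semaphorin, had log2 fold changes of 0.69 ± 0.14 (adjusted p = 0.0055) and 0.69 ± 0.15 (adjusted p = 0.0097). The count of risers was 10 without PAN+MP library 2 or 3 and 11 without PAN+MP library 4 or PAN library 2 or 3.

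The podocyte genes Nphs1, Wt1, Synpo and Magi2 did not pass the test. Nphs1 had 3005, 3181, 3126 and 2734 CPM in the PAN+MP libraries, against 2317, 1526, 1877 and 2506 CPM in the PAN libraries, all treated libraries above all untreated ones (log2 fold change 0.55 ± 0.17, adjusted p = 0.058), and it was called under 7 of the 17 alternatives. Wt1, the Wilms tumour transcription factor, had 404 to 486 CPM in PAN+MP against 323 to 409.7 CPM in PAN (log2 fold change 0.28 ± 0.17, adjusted p = 0.39). Synpo, the actin-linked protein synaptopodin, had 1119 to 1444 CPM in PAN+MP against 794 to 1228 CPM in PAN (log2 fold change 0.36 ± 0.15, adjusted p = 0.18). Wt1 and Synpo overlapped between the groups. Magi2, a scaffold of the slit diaphragm, had 129, 158, 172 and 113 CPM in the PAN+MP libraries, against 138, 88.2, 70.8 and 109 CPM in the PAN libraries (log2 fold change 0.499 ± 0.20, adjusted p = 0.15). Both groups were far below Sham, at 419 to 645 CPM (log2 fold change PAN+MP over Sham -1.93 ± 0.21, adjusted p = 0.00013).

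Filament genes that mark injured podocytes fell. Of 31 tested genes of this kind, 13 fell (41.9%, beside 5.31% of all genes), with a median of -0.41. Des, the intermediate filament desmin, had 374, 369.6, 255 and 309 CPM in the PAN+MP libraries, against 1074, 1264, 701 and 637 CPM in the PAN libraries (log2 fold change -1.49 ± 0.21, adjusted p = 0.00018). The treated libraries lay below the untreated ones and above Sham, at 129 to 185 CPM (log2 fold change PAN+MP over Sham 1.06 ± 0.20, adjusted p = 0.0071). Tagln, the smooth muscle protein transgelin, had 35.9, 38.2, 37.5 and 46.5 CPM with methylprednisolone, against 161, 188, 185 and 112 CPM without it (log2 fold change -2.03 ± 0.25, adjusted p = 4.8e-05). Flna, filamin A, had 859 to 984 CPM in PAN+MP against 1434 to 1993 CPM in PAN (log2 fold change -0.84 ± 0.11, adjusted p = 0.00014). Tagln2 had 502 to 531 CPM in PAN+MP against 725 to 992 CPM in PAN (log2 fold change -0.65 ± 0.10, adjusted p = 0.00046). Flnc, the muscle filamin, had 1.63, 1.03, 0.824 and 1.62 CPM in the PAN+MP libraries, against 39.7, 13.8, 5.04 and 3.77 CPM in the PAN libraries (log2 fold change -3.61 ± 0.63, adjusted p = 0.0014). PAN library 1 was the highest in Flnc, yet the groups did not overlap.

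Sarcomere genes were split. Of 24 tested, 6 fell (25.0%) and 2 rose (8.33%), beside 5.31% and 3.31% of all genes. The median was -0.60, or -0.38 without PAN library 2. Actc1, the cardiac actin, had 0.0362, 0.187, 0 and 0.155 CPM in the PAN+MP libraries, against 7.08, 4.38, 1.52 and 3.2002 CPM in the PAN libraries, nearly absent from the treated libraries (log2 fold change -5.32 ± 0.68, adjusted p = 8.9e-05). Ldb3, a protein of the Z-disc, had 8.41, 6.84, 6.88 and 8.27 CPM with methylprednisolone, against 45.6, 48.1, 21.8 and 27.4 CPM without it (log2 fold change -2.23 ± 0.24, adjusted p = 1.6e-05). Synpo2l, an actin-associated Z-disc protein, had 75.002 to 256 CPM in PAN+MP against 341 to 562 CPM in PAN (log2 fold change -1.598 ± 0.36, adjusted p = 0.0098). Tnnc1, troponin C of slow muscle, rose instead, with 267, 212, 297 and 313 CPM in the PAN+MP libraries, against 101, 63.96, 120.3 and 177 CPM in the PAN libraries (log2 fold change 1.24 ± 0.22, adjusted p = 0.0018). Ankrd2, a stretch-responsive ankyrin repeat protein, rose as well at 2.24 to 4.22 CPM in PAN+MP against 0.563 to 1.49 CPM in PAN (log2 fold change 1.87 ± 0.29, adjusted p = 0.00057).

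Among the other resident cells, 7 of 23 tested genes of mesangium and smooth muscle fell (30.4%, beside 5.31% of all genes), with a median of -0.30. Acta2, smooth muscle actin, had 16.1, 22.98, 19.1 and 16.3 CPM in the PAN+MP libraries, against 33.7, 51.3, 43.01 and 39.4 CPM in the PAN libraries (log2 fold change -1.17 ± 0.19, adjusted p = 0.00086). Serpine2, a protease inhibitor, had 28.97 to 33.4 CPM in PAN+MP against 50.8 to 63.9 CPM in PAN (log2 fold change -0.82 ± 0.12, adjusted p = 0.00023). Pdgfd, a ligand of the mesangial PDGF receptor, had 9.298 to 12.7 CPM in PAN+MP against 17.9 to 23.3 CPM in PAN (log2 fold change -0.88 ± 0.14, adjusted p = 0.00086). All 3 were lower without overlap, and the count was 4 without PAN+MP library 2 or 3 or PAN library 2 or 4. Tagln and Acta2 are also in the filament list above. Of 33 endothelial genes, 1 rose (3.03%) and 2 fell (6.06%), shares near the 3.31% and 5.31% of all genes. Among them were Plat, tissue plasminogen activator, with 1179, 1289, 1322 and 1499.8 CPM with methylprednisolone, against 917, 799.9, 851 and 823 CPM without it (log2 fold change 0.64 ± 0.11, adjusted p = 0.0017), and Lpl, lipoprotein lipase, with 109.6 to 261 CPM in PAN+MP against 283 to 469 CPM in PAN (log2 fold change -1.06 ± 0.23, adjusted p = 0.007). The lower endothelial count was 1 without PAN+MP library 1, 2 or 3 or PAN library 2 and in a fit of the 2 groups alone, 4 without PAN+MP library 4 and by DESeq2 and 5 with a proximal tubule covariate. Pecam1, a marker of all endothelium, overlapped at 329.5 to 396 CPM in PAN+MP against 328 to 560.3 CPM in PAN (log2 fold change -0.24 ± 0.15, adjusted p = 0.43). The Lpl call was lost in a fit of the 2 groups alone (adjusted p of 0.00013 to 0.055 over the 17 alternatives).

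Matrix genes fell in several classes. Of 49 tested genes of interstitial collagen and other matrix, 17 fell (34.7%) and 3 rose (6.12%), with a median of -0.47. Over all genes, 5.31% were called lower and 3.31% higher. Col5a1, a collagen that starts fibrils, had 82.6, 85.6, 84.6 and 74.6 CPM in the PAN+MP libraries, against 138, 177, 150.0 and 127 CPM in the PAN libraries (log2 fold change -0.86 ± 0.10, adjusted p = 3e-05). Col6a3 had 42.4, 36.2, 42.03 and 35.02 CPM with methylprednisolone, against 90.1, 147, 101 and 68.9 CPM without it (log2 fold change -1.39 ± 0.21, adjusted p = 0.00042). Eln, elastin, had 7.03, 6.997, 7.101 and 9.88 CPM in the PAN+MP libraries, against 20.2, 29.1, 31.98 and 16.04 CPM in the PAN libraries (log2 fold change -1.65 ± 0.26, adjusted p = 0.00056). In each of these the treated libraries lay close together below all untreated ones. Col5a3, Col5a2 and Loxl2, a cross-linking lysyl oxidase, had log2 fold changes of -2.38 ± 0.33 (adjusted p = 0.00017), -0.87 ± 0.14 (adjusted p = 0.00066) and -1.399 ± 0.22 (adjusted p = 0.0006). Efemp1, a fibulin, rose at 44.000 to 55.6 CPM in PAN+MP against 15.1 to 30.8 CPM in PAN (log2 fold change 1.21 ± 0.23, adjusted p = 0.0032). The count of lower matrix genes was 10 without PAN+MP library 3 and 11 without PAN+MP library 2 or PAN library 2, and that of higher ones 1 without PAN library 2.

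Col1a1, the main chain of type I collagen, had 158, 77.6, 49.8 and 98.1 CPM in the PAN+MP libraries, against 228, 83.2, 67.5 and 480.1 CPM in the PAN libraries, with wide overlap (log2 fold change -1.16 ± 0.53, adjusted p = 0.22). It was far above Sham in both groups, at 10.2 to 18.5 CPM in Sham (log2 fold change PAN+MP over Sham 2.77 ± 0.57, adjusted p = 0.0091). Fn1, fibronectin, had 242 to 346 CPM in PAN+MP against 431 to 739 CPM in PAN (log2 fold change -0.79 ± 0.23, adjusted p = 0.042), a call lost without PAN+MP library 1, 2, 3 or 4 or PAN library 2, 3 or 4 (adjusted p of 0.01 to 0.15 over the 17 alternatives). Of 23 basement membrane genes, 4 fell (17.4%, beside 5.31% of all genes). The lower count was 7 by DESeq2 and 8 with a proximal tubule covariate. Col4a1 and Col4a2, the paired chains of the common collagen IV, had 707 to 925 CPM in PAN+MP against 1438 to 2384 CPM in PAN, and 509.6 to 662 CPM in PAN+MP against 975 to 1642 CPM in PAN (log2 fold changes -1.11 ± 0.18, adjusted p = 0.00085, and -1.06 ± 0.18, adjusted p = 0.0012). Nid1, the linker protein nidogen, had 330.3 to 366 CPM in PAN+MP against 476 to 732 CPM in PAN (log2 fold change -0.75 ± 0.14, adjusted p = 0.0023). All 3 fell without overlap, and PAN library 2 held the highest level of each. Over the 17 alternatives their log2 fold changes were -1.19 to -0.91, -1.16 to -0.88 and -0.84 to -0.62, and all 3 stayed called.

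Proteases and their inhibitors also fell, 16 of 43 tested (37.2%), with 2 higher (4.65%) and a median of -0.36. Over all genes, 5.31% were called lower and 3.31% higher. Adamts14, a procollagen peptidase, had 8.73, 10.8, 7.26 and 7.15 CPM in the PAN+MP libraries, against 84.5, 85.98, 47.3 and 46.9 CPM in the PAN libraries (log2 fold change -2.96 ± 0.29, adjusted p = 1.2e-05). The treated libraries were far below the untreated ones and above Sham, at 1.64 to 3.32 CPM (log2 fold change PAN+MP over Sham 1.81 ± 0.31, adjusted p = 0.0038). Mmp2, gelatinase A, had 14.9 to 18.3 CPM in PAN+MP against 31.8 to 50.1 CPM in PAN (log2 fold change -1.28 ± 0.15, adjusted p = 3.3e-05). Adam12, a metalloprotease of injured mesenchyme, had 8.24 to 19.3 CPM in PAN+MP against 44.8 to 74.1 CPM in PAN (log2 fold change -2.203 ± 0.27, adjusted p = 5.9e-05). Mmp12, the macrophage elastase, had 0.995 to 3.51 CPM in PAN+MP against 8.496 to 15.1 CPM in PAN (log2 fold change -2.35 ± 0.35, adjusted p = 0.00036). These genes did not overlap between the groups, and Plat, described above, was 1 of the 2 that rose. The higher count was 1 without PAN+MP library 3 or 4 or PAN library 2 or 3 and in a fit of the 2 groups alone.

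TGF beta genes were divided, with 2 of 32 higher (6.25%) and 2 lower (6.25%), among them Tgfbr3 and Tgfb3. Over all genes the shares were 3.31% higher and 5.31% lower. Tgfbr3, the co-receptor betaglycan, had 295, 359, 371 and 285 CPM in the PAN+MP libraries, against 144, 115, 114 and 114 CPM in the PAN libraries, every treated library far above every PAN library (log2 fold change 1.43 ± 0.15, adjusted p = 1.7e-05). Tgfb3, a ligand, had 21.6, 20.3, 24.4 and 16.3 CPM with methylprednisolone, against 32.6, 41.7, 27.4 and 41.7 CPM without it (log2 fold change -0.797 ± 0.17, adjusted p = 0.0084). The higher count was 1 without PAN+MP library 2 or 3 or PAN library 2. Igfbp2, a binding protein of insulin-like growth factors, had 221 to 365 CPM in PAN+MP against 79.2 to 145 CPM in PAN (log2 fold change 1.398 ± 0.25, adjusted p = 0.002) and was 1 of 3 higher genes (10.3%) among 29 growth factor genes. F3, tissue factor, which starts coagulation, had 72.5, 109, 97.5 and 126 CPM in the PAN+MP libraries, against 26.9, 10.6, 50.1 and 28.5 CPM in the PAN libraries (log2 fold change 1.802 ± 0.41, adjusted p = 0.011). It rose in all 4 treated libraries, and with Plat it stood among 2 higher (9.09%) and 3 lower (13.6%) genes of 22 in coagulation and fibrinolysis. Of 34 vasoactive and prostaglandin genes, 6 rose (17.6%) and 3 fell (8.82%), and the lower count was 0 without PAN+MP library 1 or 3 and 1 without PAN+MP library 2 or PAN library 1, 2 or 3 and in a fit of the 2 groups alone. Mme, the peptidase neprilysin, rose among them, at 182 to 231 CPM in PAN+MP against 79.8 to 158 CPM in PAN (log2 fold change 0.94 ± 0.22, adjusted p = 0.012).

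**Figure D5:**
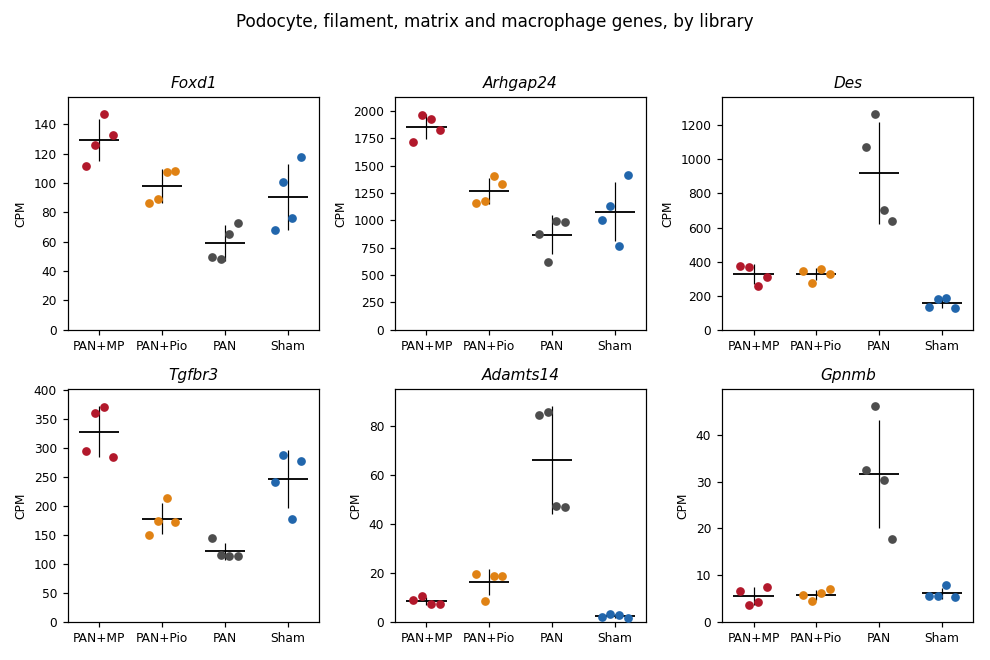
Levels in CPM of 2 podocyte genes (Foxd1, Arhgap24), the filament gene Des, the TGF beta co-receptor Tgfbr3, the procollagen peptidase Adamts14 and the macrophage gene Gpnmb in each library of the 4 groups, with the mean (horizontal line) and SD (vertical line, n = 4). The PAN+MP and PAN libraries did not overlap for any of the 6 genes; Des had 255 to 374 CPM in PAN+MP and 637 to 1264 CPM in PAN.

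Macrophage markers were lower in part. Of 29 tested, 8 fell (27.6%, beside 5.31% of all genes), with a median of -0.54. Gpnmb, a glycoprotein of lipid-laden macrophages, had 6.59, 3.54, 4.18 and 7.52 CPM in the PAN+MP libraries, against 32.6, 46.1, 30.3 and 17.8 CPM in the PAN libraries (log2 fold change -2.54 ± 0.28, adjusted p = 2.3e-05). Cx3cr1, the fractalkine receptor, had 8.08, 4.98, 7.77 and 5.78 CPM with methylprednisolone, against 15.8, 21.5, 12.2 and 13.2 CPM without it (log2 fold change -1.24 ± 0.23, adjusted p = 0.0023). Trem2, a lipid receptor of the same cells, had 0.0621 to 0.2899 CPM in PAN+MP against 0.6096 to 1.41 CPM in PAN (log2 fold change -2.52 ± 0.59, adjusted p = 0.013). C1qa, a chain of complement C1q, had 4.51 to 16.4 CPM in PAN+MP against 21.4 to 29.7 CPM in PAN (log2 fold change -1.03 ± 0.28, adjusted p = 0.029). All 4 fell without overlap, while Cd68, the lysosomal marker used in histology, overlapped at 6.03 to 10.9 CPM in PAN+MP against 7.899 to 11.98 CPM in PAN (log2 fold change -0.46 ± 0.20, adjusted p = 0.21). Cd163 had too few reads to be tested. Summed over the list, the level was 1679 to 2017 CPM in PAN+MP and 1611 to 1904 CPM in PAN. A sum follows the most abundant members. The mean level of the tested markers, in log2(CPM + 1), was 3.447 to 4.125 in PAN+MP and 4.23 to 4.674 in PAN, without overlap. The log2 fold change was below 0 for 23 markers and above 0 for 6. The lower count was 3 without PAN+MP library 3 and in a fit of the 2 groups alone, 5 without PAN+MP library 2 or PAN library 1 or 2, 13 by limma voom and 15 by DESeq2. The Trem2 call was lost without PAN+MP library 3 (adjusted p of 0.0019 to 0.053 over the 16 alternatives). The C1qa call was lost without PAN+MP library 3 or PAN library 1 or 2 and in a fit of the 2 groups alone (adjusted p of 0.0049 to 0.097 over the 17 alternatives), and that of Ctss, a lysosomal protease at 11.7 to 29.6 CPM in PAN+MP against 33.1 to 46.7 CPM in PAN (log2 fold change -0.89 ± 0.21, adjusted p = 0.016), without PAN+MP library 3 and in a fit of the 2 groups alone (adjusted p of 0.0018 to 0.063 over the 17 alternatives).

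Genes of MHC class II, which present antigen, fell as a group, 6 of 8 tested (75.0%), with a median of -0.77. RT1-Bb, a class II beta chain, had 51.3, 34.1, 49.96 and 51.1 CPM in the PAN+MP libraries, against 79.9, 65.4, 73.95 and 74.5 CPM in the PAN libraries (log2 fold change -0.66 ± 0.13, adjusted p = 0.0037). RT1-Da, an alpha chain, had 124, 54.1, 101 and 126 CPM with methylprednisolone, against 213, 170.3, 184 and 204 CPM without it (log2 fold change -0.93 ± 0.20, adjusted p = 0.0084). Library 2 was the lowest treated library in both. Rat class II genes have close paralogs, so the split of reads among them is uncertain. Cd4, a marker of helper T cells and of rat macrophages, had 9.95 to 17.03 CPM in PAN+MP against 20.9 to 28.7 CPM in PAN (log2 fold change -0.82 ± 0.17, adjusted p = 0.0052). It was 1 of 2 lower genes among 19 lymphocyte genes (10.5%, beside 5.31% of all genes). That lower count was 1 without PAN+MP library 1, 2 or 3 or PAN library 1, 2, 3 or 4, with no filter on low counts and in a fit of the 2 groups alone.

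Among 23 chemokine genes, 6 fell (26.1%) and 1 rose (4.35%), beside 5.31% and 3.31% of all genes. Cxcl13, which attracts B cells, had 19.6, 28.9, 12.2 and 17.1 CPM in the PAN+MP libraries, against 53.1, 114, 85.6 and 55.97 CPM in the PAN libraries (log2 fold change -1.99 ± 0.29, adjusted p = 0.00031). Ccl2, the monocyte attractant MCP-1 and a classic target of glucocorticoid repression, had 1.52, 1.59, 1.55 and 1.18 CPM with methylprednisolone, against 2.01, 3.97, 3.45 and 2.97 CPM without it (log2 fold change -1.09 ± 0.28, adjusted p = 0.022). Both were lower in all treated libraries, and the riser was Cxcr7, a scavenging receptor, at 283 to 357 CPM in PAN+MP against 160.0 to 236 CPM in PAN (log2 fold change 0.605 ± 0.14, adjusted p = 0.015). The lower count was 3 without PAN+MP library 2 or 3 or PAN library 2 or 3, and the Ccl2 call was lost without PAN+MP library 2, 3 or 4 or PAN library 2 or 3 (adjusted p of 0.0026 to 0.079 over the 17 alternatives). Of 33 inflammatory mediators, 3 fell (9.09%, beside 5.31% of all genes), with a median of -0.14. The smallest p among them was that of Tnfaip2, a TNF-induced gene, at 119 to 159.9 CPM in PAN+MP against 257 to 347 CPM in PAN (log2 fold change -1.17 ± 0.19, adjusted p = 0.00078). The count of lower mediators was 1 without PAN+MP library 1, 2 or 3 or PAN library 2 and in a fit of the 2 groups alone and 5 by DESeq2. Of 24 complement genes, 4 fell (16.7%) and 1 rose (4.17%), beside 5.31% of all genes called lower and 3.31% called higher. The lower complement count was 0 without PAN+MP library 3, 1 without PAN+MP library 2 or PAN library 1 or 2, 2 in a fit of the 2 groups alone and 7 by DESeq2. The higher one was 0 without PAN+MP library 2, 3 or 4 or PAN library 1 or 2, without the 2 tagged Sham and PAN+Pio libraries and in a fit of the 2 groups alone and 2 by DESeq2 and with a proximal tubule covariate.

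Few interferon-stimulated genes passed the test. Of 37 tested, 3 rose (8.11%, beside 3.31% of all genes), and the median log2 fold change was 0.45, or 0.12 without PAN+MP library 1. Ifit3, an antiviral protein, had 109.9, 32.4, 34.01 and 25.8 CPM in the PAN+MP libraries, against 13.3, 19.98, 11.3 and 12.8 CPM in the PAN libraries (log2 fold change 1.81 ± 0.40, adjusted p = 0.0088). Over the 17 alternatives its log2 fold change was 1.10 to 2.04, and it stayed called. Library 1 stood well above the other PAN+MP libraries, and the summed level of the list reached 2620 CPM there, within a PAN+MP range of 1097 to 2620 CPM, against 1004 to 1501 CPM in PAN. The higher count was 1 without PAN+MP library 1 or PAN library 1 or 3, by limma voom and in a fit of the 2 groups alone, 6 without PAN+MP library 4 and by DESeq2 and 7 with a proximal tubule covariate.

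Some immediate early and lipid genes fell. Of 26 immediate early genes, 7 fell (26.9%, beside 5.31% of all genes), with a median of -0.33. The median was -0.17 without PAN library 2, -0.215 without PAN+MP library 2 and -0.503 without PAN+MP library 4. Fosl1, a subunit of AP-1, had 0.0311 to 0.285 CPM in PAN+MP against 0.686 to 1.67 CPM in PAN (log2 fold change -2.91 ± 0.54, adjusted p = 0.0023), Fosl2 had 17.5 to 22.96 CPM in PAN+MP against 22.3 to 36.4 CPM in PAN (log2 fold change -0.63 ± 0.14, adjusted p = 0.0079), and the nuclear receptors Nr4a3 and Nr4a1 had log2 fold changes of -1.69 ± 0.39 (adjusted p = 0.012) and -1.20 ± 0.29 (adjusted p = 0.016). The Nr4a1 call was lost without PAN+MP library 2 or 4 (adjusted p of 0.001 to 0.054 over the 17 alternatives). Cpt1b, which carries fatty acids into mitochondria, had 12.9, 19.8, 8.65 and 10.9 CPM in the PAN+MP libraries, against 82.2, 74.1, 55.4 and 52.5 CPM in the PAN libraries (log2 fold change -2.34 ± 0.25, adjusted p = 1.7e-05). It was the clearest of 7 lower genes (17.5%) among 40 genes of PPAR and lipid handling. That count was 2 without PAN+MP library 2 or 3 or PAN library 2, 3 without PAN library 1 and 4 without PAN+MP library 1 and in a fit of the 2 groups alone. Havcr1, the tubule injury marker KIM-1, fell to 0.0933 to 0.697 CPM in PAN+MP, against 1.56 to 8.61 CPM in PAN (log2 fold change -3.46 ± 0.63, adjusted p = 0.0022), and was 1 of 3 lower genes (15.0%) among 20 kidney injury markers. Keap1, the sensor of oxidative stress, was the 1 called gene of 25 NRF2 genes, at 0.22 ± 0.06 (adjusted p = 0.028), and Mthfd2, a folate enzyme of mitochondria, that of 24 genes of amino acid and endoplasmic reticulum stress, at -1.07 ± 0.23 (adjusted p = 0.0078). The Keap1 call was lost without PAN+MP library 1, 2 or 3 or PAN library 1, 2 or 4 and with no filter on low counts (adjusted p of 0.0019 to 0.19 over the 17 alternatives). The stress count was 2 without PAN library 3 and 4 in a fit of the 2 groups alone.

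Housekeeping and carry-over lists had few or no calls. By edgeR's quasi-likelihood test, 0 of 33 respiratory chain genes, 0 of 22 ribosomal protein genes and 0 of 26 proximal tubule genes were called. At an unadjusted p under 0.05 the counts were 2, 1 and 0, DESeq2 and limma voom called 0 in each, and the fit with a proximal tubule covariate called 1 respiratory and 2 tubule genes. Slc34a1, the phosphate carrier of the proximal tubule, had 938, 854, 703 and 918 CPM in the PAN+MP libraries, against 848, 308, 1256 and 1022 CPM in the PAN libraries (log2 fold change -0.01 ± 0.34, adjusted p = 0.99). Adding the proximal tubule score as a covariate left all 1470 calls in place and gave 1910 in all. Of 20 genes of the parietal epithelium, which lines Bowman's capsule, 2 were lower (10.0%, beside 5.31% of all genes). That parietal count was 0 without PAN+MP library 1, 2 or 3 or PAN library 1, 2 or 3 and 1 without PAN+MP library 4 or PAN library 4, with no filter on low counts and in a fit of the 2 groups alone. Cholesterol synthesis had 0 calls among 23 genes and the distal nephron 0 among 21, with 1 and 0 at an unadjusted p under 0.05, DESeq2 called 0 distal nephron genes, and the cholesterol count was 1 without PAN library 3, by DESeq2 and with a proximal tubule covariate and 2 without PAN library 4. Red cell genes had 1 call of 13, the membrane protein gene Epb42 at 14.9 to 21.6 CPM in PAN+MP against 6.01 to 9.33 CPM in PAN (adjusted p = 0.00012), and the list had a summed level of 2414 to 3144 CPM in PAN+MP and 1641 to 2730 CPM in PAN. Neutrophil markers summed to 275.9 to 507.6 CPM in PAN+MP and 232 to 369 CPM in PAN, with 0 of 8 genes called, 1 at an unadjusted p under 0.05 and 0 by DESeq2 and limma voom, while Mpo, Elane, Camp and Ltf had too few reads to be tested. Lymphocyte markers summed to 72.1 to 85.7 CPM in PAN+MP and 82.8 to 129.5 CPM in PAN, and fat cell markers to 61.2 to 95.1 CPM in PAN+MP and 67.5 to 92.5 CPM in PAN. The part of these cells in the results was not tested.

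Set against pioglitazone, 108 genes (0.633% of those tested) differed, 35 higher (0.205%) and 73 lower (0.428%) in PAN+MP than in PAN+Pio. Of 38 mitosis genes, 17 were lower. Mki67 had 18.8, 11.2, 10.8 and 8.89 CPM in PAN+MP and 43.3, 25.2, 43.3 and 38.01 CPM in PAN+Pio (log2 fold change -1.59 ± 0.28, adjusted p = 0.021). Of 18 clock genes, 5 were higher and 2 lower, with log2 fold changes of 1.86 for Tef and -2.51 for Arntl. F3 had 72.5, 109, 97.5 and 126 CPM in PAN+MP and 19.9, 28.1, 21.8 and 28.9 CPM in PAN+Pio (log2 fold change 2.04 ± 0.41, adjusted p = 0.034). Tgfbr3 had 285 to 371 CPM in PAN+MP and 149 to 214 CPM in PAN+Pio (log2 fold change 0.88 ± 0.15, adjusted p = 0.019). Art3, a surface ADP-ribosyltransferase, and Lrtm2 had log2 fold changes of 2.06 ± 0.39 (adjusted p = 0.028) and 3.17 ± 0.62 (adjusted p = 0.028). No gene of the 108 changed sign under any of the 17 alternatives in which it was tested, and the log2 fold change stayed at 1.695 to 2.08 for Tef, -1.895 to -1.64 for Bub1b and -1.87 to -1.46 for Mki67. The count of calls was 130 without PAN+MP library 1 and 106 without PAN+Pio library 2, and lower without any other library of the 2 groups. It was 0 without PAN+MP library 2 or 3, with 1308 and 1263 genes at an unadjusted p under 0.05, then 6 without PAN+Pio library 1, 11 without PAN+MP library 4, 19 without PAN+Pio library 3 and 24 without PAN+Pio library 4. DESeq2 called 294 with all libraries.

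Set against Sham, 2167 genes (12.7%) differed in PAN+MP, 1020 higher (5.98%) and 1147 lower (6.72%). This comparison uses the same PAN+MP libraries as the main one, so its values stand beside it and are no independent support. Of the 38 mitosis genes, 8 were lower and 1 higher than in Sham, at a median of -0.69. Of 33 respiratory chain genes, 13 were higher, with a median of 0.38. The 26 proximal tubule genes had a median of 0.69 over Sham, and their mean level, with overlapping groups, was 6.85 to 7.75 in PAN+MP and 6.08 to 7.22 in Sham, in log2(CPM + 1). In PAN over Sham the tubule median was 0.72. The part of tubule RNA in the respiratory chain result was not tested. Of 33 endothelial genes 12 were lower, with a median of -0.47. Among 48 podocyte genes 8 were higher and 3 lower. PAN against Sham differed in 3231 genes (18.9%), 1777 higher (10.4%) and 1454 lower (8.52%), and all 38 mitosis genes were higher in PAN, at a median of 2.12. The total was 726 without Sham library 1, 988 without PAN+MP library 4, 1012 without PAN+MP library 2, 1309 without PAN+MP library 1, 1327 without Sham library 3, and 825 with a proximal tubule covariate.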

How the data were processed

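Total glomerular RNA of 16 rats, 4 in each of 4 groups, was sequenced. The authors deposited 1 table with raw read counts per gene, per the file headers. The submitters' processing notes name cutadapt, STAR, HTSeq 0.6.1p1, DESeq2 and the build Rnor_6.0, with no role or order, and the annotation is not given in the sources used here. Deposited group means, a normalized signal, were not used, nor were 16 columns of normalized values by library. The authors' log2 fold changes and adjusted p-values, named by the file headers, served only for the comparison with the deposited table; their method is not stated there. Count columns were matched to groups by their names, which carry no replicate numbers, and the word "high" in the names of the PAN columns is not explained in the sources used here.

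Counts were tested with edgeR 4.0.16 (R 4.3.3) by its quasi-likelihood test, in 1 fit of all 16 libraries with 1 term per group, so that 12 residual degrees of freedom estimate the spread. Library sizes were scaled by TMM (factors 0.952 to 1.05), and genes were filtered by filterByExpr with a minimum count of 10. Fold changes used the default prior count of edgeR's fit, and a prior count of 2 served only for the log2 CPM of the proximal tubule score. P-values were adjusted by Benjamini-Hochberg over the 17061 genes. Errors beside fold changes are approximate standard errors, the absolute log2 fold change over the square root of the quasi-likelihood F. CPM use the scaled library sizes. Totals of 22802109 to 32571877 counts per library set the counting error, and the biological coefficient of variation was 19.4%. In all 24 pairs of libraries of 1 group the variance was at least 11.2 times the counting variance, so none was counted as a duplicate. On simulated counts for PAN+MP against PAN over 16885 genes, 100 genes were changed by 1 and 100 by 2 on the log2 scale. The test recovered 73% of those changed by 1 and 92% of those changed by 2, and 10 of 175 calls had no change. How far these shares hold for the measured counts was not tested.

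Genes in the text are the 12 largest changes in each direction, the called members of each list with the smallest p, standard readouts whatever their values, and the largest differences from PAN+Pio. Beside 124 genes of this rule, 10 were chosen after their values were seen (Mt2A, Mcm5, Cry2, Sema3g, Mmp12, Nr4a1, Synpo2l, Col5a2, Loxl2 and Mme). Mt1a, set beside Mt2A, and the neutrophil markers S100a8, S100a9, Mmp8 and Cxcr2 were likewise chosen and are left out of the counts of named genes. The comparison and its 40 gene lists were chosen with earlier results of these data known. Of 1166 list entries, 1153 matched a gene of the table by symbol or RefSeq synonym. Promoters were matched by symbol in RefSeq on GRCr8, which is not the build of the counts. Alternatives were RLE and upper quartile scaling, other filters, DESeq2 1.42.0, limma 3.58.1 voom, a proximal tubule covariate, fits of fewer libraries, and leaving out each library.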

Additional observations from a re-analysis of the deposited data

Results flagged for a closer look

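In 27 of 268 groups of 4 libraries looked at, 1 library stood far from its group, by a gap that chance alone gives in about 1 of 20 groups. PAN+MP library 1 lay far above the other 3 for Fam64a at 2.21, Prc1 at 11.3, Top2a at 12.6, Bub1b at 2.36, Adam12 at 19.3 and Ifit3 at 109.9 CPM and far below the other 3 for Mme at 182 CPM. PAN+MP library 2 lay far below the other 3 for RT1-Bb at 34.1 CPM. PAN+MP library 4 lay far above the other 3 for Fkbp5 at 210.5, Mt2A at 166, Lpar1 at 49.7, Eln at 9.88 and Lrp2 at 3143 CPM and far below the other 3 for Myh15 at 47.6, Synpo at 1119 and Ccl2 at 1.18 CPM. PAN library 1 lay far above the other 3 for Tgfbr3 at 144 and Keap1 at 62.2 CPM. PAN library 2 lay far above the other 3 for Ttk at 15.4, Cenpt at 12.2, Fn1 at 739, Adam12 at 74.1, Lpl at 469 and Mmp12 at 15.1 CPM and far below the other 3 for Npr3 at 1218 CPM. PAN library 4 lay far above the other 3 for Ankrd2 at 1.49 CPM and far below the other 3 for Pbk at 7.77 CPM. For some of these genes the values of every library stand with the results above, and for others only ranges or fold changes do. PAN+MP library 4 was the outlying library for Fkbp5 and Mt2A, both glucocorticoid-induced, and PAN+MP library 1 for 4 cell division genes. The 70 genes at least 2-fold higher in PAN+MP library 4 also held neutrophil markers. S100a8 had 10.3 CPM there against 1.06 to 1.81 CPM in the rest of PAN+MP, and S100a9 23.5 against 2.02 to 7.45 CPM. Mmp8 had 12.5 CPM against 0.529 to 1.81 CPM, and Cxcr2 8.39 against 0.871 to 1.997 CPM. What sets library 4 apart was not tested.

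The 2 drug groups, each set against the same PAN libraries, differed by edgeR's test of PAN+MP against PAN+Pio at an adjusted p under 0.05 in 23 genes named above. On the log2 scale, PAN+MP was higher for Rhbdl3 by 1.13, Tef by 1.86, Per3 by 1.63, Per2 by 1.83, Cry2 by 0.84, Tgfbr3 by 0.88, F3 by 2.04, Lrtm2 by 3.17 and Art3 by 2.06. It was lower for the following, as log2 fold changes of PAN+MP over PAN+Pio, namely Ttk at -1.92, Hist1h2bl at -2.29, Mxd3 at -2.099, Hist1h2ak at -2.04, Prc1 at -1.84, Mki67 at -1.59, Top2a at -1.78, Bub1b at -1.73, Tpx2 at -0.91, Mybl2 at -0.999, Kif23 at -1.29, Ccna2 at -1.49, Arntl at -2.51 and Clock at -0.43. The clock genes Tef, Per3, Per2 and Cry2 were higher and Arntl and Clock lower, and the other lower genes take part in cell division or carry histone symbols. The sign held under every alternative in which each was tested, with log2 fold changes of 1.74 to 1.99 for Per2, -2.74 to -2.33 for Arntl and -2.64 to -2.098 for Hist1h2bl over the 17 alternatives. The adjusted p was above the threshold for all of them without PAN+MP library 2 or 3.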

How the results depend on the processing

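No paired analysis was possible because the count columns carry no replicate numbers, so a library cannot be tied to a numbered label. For PAN+MP against PAN, all 17 alternatives kept the sign of every called gene, and between 913 (without PAN library 2) and 1470 (DESeq2, and the proximal tubule covariate) of the 1470 genes were called again; a fit of both groups alone called 1161 of them and limma voom 1410. Leaving out 1 library gave 946 to 1387 called genes, 346 to 528 of them higher and 600 to 859 lower, and the counts of higher and of lower genes were 361 and 602 without PAN library 2. Of 117 called genes named in the text, 101 were called under every alternative and 16 lost the call under at least 1. PAN+MP against PAN+Pio depended most on the setting, with 294 genes by DESeq2, 221 with the covariate, 172 in a fit of both groups alone, 52 by limma voom, 15 without the tagged Sham library 2 and PAN+Pio library 3, and 0 to 130 when 1 library was left out; the cause was not tested. PAN+MP against Sham gave 825 with the covariate and 726 to 2381 when 1 library was left out. Of 17 genes named without a call, 6 changed the sign of the log2 fold change. Hsd11b1 had 0.137 by limma voom, 0.025 with the covariate and -0.383 to 0.447 when 1 library was left out. Slc34a1 had 0.157, 0.072 and -0.284 to 0.243 under the same settings. Leaving out 1 library gave -0.002 to 0.08 for Nr3c1, -0.444 to 1.267 for Fkbp5, -0.237 to 1.312 for Zbtb16 and -0.077 to 1.131 for Mt2A, the lowest of the last 3 without PAN+MP library 4. Fold changes of Acta1, Actc1, Iqsec3, Trem2, Fosl1 and Havcr1 rest on few reads in PAN+MP, which limits their precision.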
